A study of Mus musculus with 8 samples.

Results

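The Slc25 genes encode the carriers that move metabolites, nucleotides and coenzymes across the inner mitochondrial membrane. They were taken here by their symbols: every gene of the array's annotation whose symbol starts with Slc25a was a member, except the mitoferrin gene Slc25a37. This gave 43 members among 18194 genes with a probe set of their own, and 38 of them were bright enough to be tested, at a log2 intensity of 5 or more on at least 2 arrays. Where a gene had several probe sets, the one with the highest mean over the 8 arrays stood for it. The 5 members below that minimum were Slc25a2, Slc25a18, Slc25a31, Slc25a41 and Slc25a54, which stayed between 2.58 and 3.98 on all arrays. The members lie on 19 chromosomes, 3 of them (Slc25a5, Slc25a14 and Slc25a53) on the X chromosome.

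Each carrier is a small membrane protein that exchanges or imports a narrow set of solutes, and so sets which substrates reach the enzymes of the mitochondrial matrix. Ornithine, aspartate and citrate carriers join the matrix to the urea cycle, to the malate-aspartate shuttle and to fatty acid synthesis in the cytosol, pathways for which the liver is known. Developing red cells rely on other members, among them the glycine carrier Slc25a38 and the mitoferrins, which bring the substrates of heme synthesis into mitochondria. Adenine nucleotide and phosphate carriers serve ATP synthesis in nearly all cells.

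Total RNA came from blood-forming tissues of C57B6/J mice that were Col18a1+/+ (wild-type) or Col18a1-/- (knockout); Col18a1 encodes type XVIII collagen of basement membranes. Bone marrow was flushed from the femurs and tibias of 3-month-old males, and fetal liver was taken at embryonic day 14.5 from embryos of undetermined sex. Both were made into filtered suspensions of all their cells, with no sorting. There were 4 groups of 2 arrays, one for each tissue and genotype, and each array held RNA pooled from 2 littermates, so that p-values measure the spread between such pools.

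Col18a1 stood at 7.84 and 7.85 (log2) in wild-type and at 5.63 and 5.99 in knockout marrow, and at 9.06 and 9.18 in wild-type and 8.17 and 8.06 in knockout fetal liver; whether its probe set lies in the deleted part is not given. Xist stood at 11.04 and 11.22 on the wild-type fetal liver arrays and at 4.61 to 5.03 on the other 6, while the Y-linked Eif2s3y stood at 3.29 and 3.00 on the former and at 9.38 to 10.03 on the latter. In fetal liver, genotype and the sex of the pooled embryos therefore cannot be told apart, and the wild-type tissue comparison and the interaction carry the same sex difference. Hepatocyte markers summed to 8.04 to 8.28 (log2) on marrow and 16.45 to 16.56 on fetal liver arrays, neutrophil markers to 16.98 to 17.04 and 13.15 to 13.71, B cell markers to 13.27 to 13.41 and 8.04 to 8.35, endothelial and stromal markers to 10.93 to 11.83 and 12.94 to 13.38, and erythroid markers to 15.37 to 15.45 and 15.36 to 15.52. In fetal liver all 10 hepatocyte markers were higher, and all 10 neutrophil and all 7 tested B cell markers lower, in both genotypes. Hepatocyte markers averaged 4.38 to 4.63 on marrow and B cell markers 4.94 to 5.28 on fetal liver arrays, near or under the minimum of 5. Where a marker reached that minimum through its brighter tissue alone, the direction was built into the selection. No marker had an intensity of 0 on any array. The tissues also differ in age, and in such bulk RNA fewer cells of a type and less RNA per cell cannot be told apart.

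The first question was how carrier levels differ between fetal liver and adult marrow. In wild-type mice 22 of the 38 tested members passed an adjusted p of 0.05 (limma, Benjamini-Hochberg over 13136 genes), beside 65.9% of all genes tested. Of these, 14 were higher in fetal liver (39.2% of all genes were) and 8 lower (26.8%). In knockout mice 22 passed as well, beside 63.8% of all genes, with 12 higher (36.6%) and 10 lower (27.1%). The members' share, 57.9% in each genotype, lay near that of all genes, and the counts say nothing particular of the family. The median difference of the members was 0.08 (log2) in wild-type and 0.03 in knockout mice, beside 0.14 and 0.11 for all genes tested. Centring each array on the median of its gene values, an alternative chosen after seeing the data that lowers every fetal liver difference by 0.22 in wild-type and 0.19 in knockout mice, gave 12 higher and 16 lower in wild-type and 9 higher and 16 lower in knockout mice.

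The tissue comparisons of the 2 genotypes used different arrays, though they shared 1 estimate of the spread. In both of them 11 members were higher (31.8% of all genes were) and 8 lower (23.3%), and 0 were called in opposite directions (0.16%). A difference of at least 2-fold in both genotypes was measured for 7 members upward (11.5% of all genes) and 4 downward (9.76%). For 23 of the 38 members, all 4 arrays of one tissue lay above all 4 of the other, beside 67.5% of all genes. The higher counts, here and for each genotype above, include Slc25a23, which reached the minimum for testing through fetal liver arrays alone. The counts of members called lower include Slc25a27, which reached it through marrow arrays alone. Slc25a23 and Slc25a27 are also among the 23 members whose tissues did not overlap. For both, a difference in the called direction was built into the selection, so these members add little to any of these counts.

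**Figure D1:**
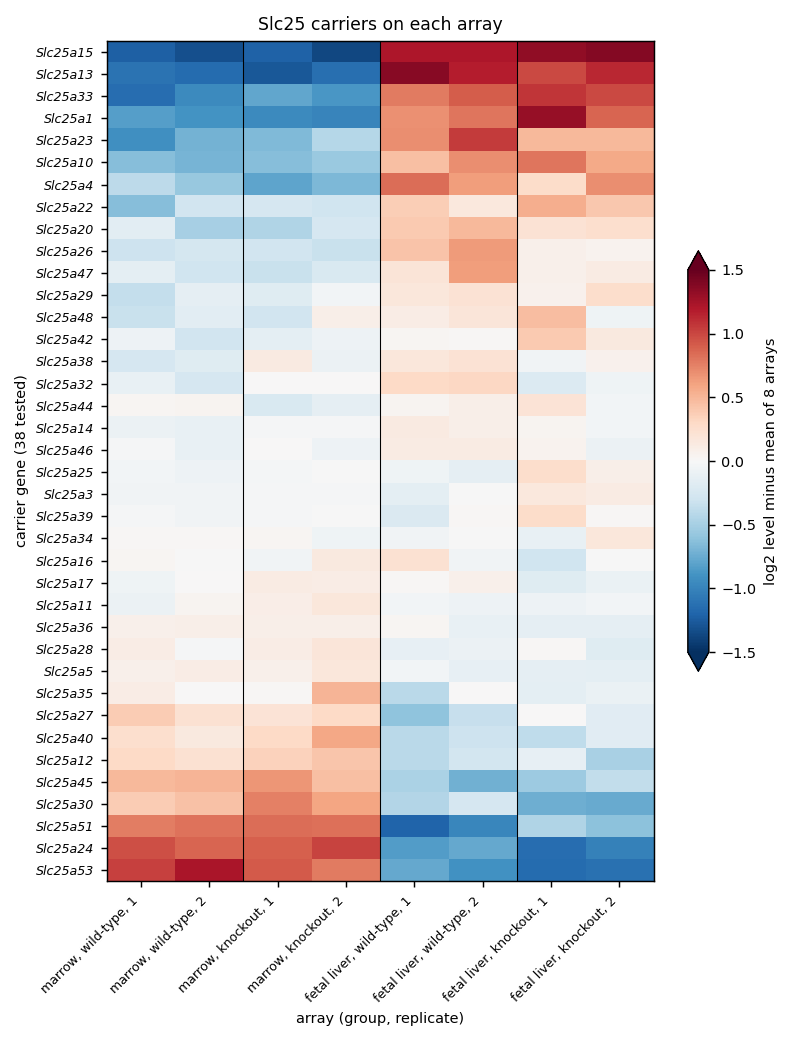
Log2 level of the 38 tested carriers (rows, ordered by the mean tissue difference) on each of the 8 arrays (columns, by group and replicate), minus the carrier's mean over the 8 arrays; red is above and blue below that mean, and colours saturate at 1.5. Slc25a15 and Slc25a13 head the rows that are red on the 4 fetal liver arrays, Slc25a53, Slc25a24 and Slc25a51 close the rows that are red on the 4 marrow arrays, and the rows between show little colour.

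The widest gaps between the tissues were those of Slc25a15 and Slc25a13, amino acid carriers that feed the urea cycle. Slc25a15, which exchanges ornithine for citrulline, stood at 7.41 and 7.32 in wild-type and 7.43 and 7.28 in knockout marrow, and at 9.85 and 9.85 in wild-type and 9.97 and 10.03 in knockout fetal liver. The tissues lay far apart, while the marrow genotypes overlapped and the knockout fetal liver arrays lay just above the wild-type ones. The tissue difference was 2.49 ± 0.093 (log2, SE; 5.61-fold; adjusted p = 6.74e-08, limma) in wild-type and 2.64 ± 0.093 (6.25-fold; adjusted p = 4.68e-08) in knockout mice. A second, dimmer probe set of the gene differed by 0.98 and 0.79 in the same direction. Slc25a29, a carrier of basic amino acids, was higher by 0.44 ± 0.115 in wild-type mice (adjusted p = 0.00842, limma) and by 0.28 in knockout mice (adjusted p = 0.0614), where it missed the threshold. Without the first wild-type marrow array the first of these also missed it, at 0.33 (adjusted p = 0.0757, limma). The second ornithine carrier, Slc25a2, was among the members too dim to test.

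Slc25a13 (citrin), the aspartate-glutamate carrier known from liver, lay at 7.02 and 6.97 in wild-type and 6.86 and 6.999 in knockout marrow. In fetal liver it reached 9.50 and 9.31 in wild-type and 9.12 and 9.26 in knockout pools, above every marrow array. This is a difference of 2.40 ± 0.106 (5.29-fold; adjusted p = 1.78e-07, limma) in wild-type and 2.26 ± 0.106 (4.79-fold; adjusted p = 2.57e-07) in knockout mice. Its paralog Slc25a12 (aralar), known from brain and muscle, ran the other way: it was lower in fetal liver, with a difference of -0.60 in wild-type (adjusted p = 0.00273, limma) and -0.68 in knockout mice (adjusted p = 0.00139), from 9.53 to 9.71 on the marrow arrays to 8.82 to 9.18. One of its 2 other probe sets, near the minimum, differed by 0.24 and 0.05 in the opposite direction. The glutamate carrier Slc25a22 was higher in fetal liver by 0.73 and 0.75 (adjusted p = 0.00117 and 0.00106, limma).

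The enzymes that these carriers serve were counted from lists of partner genes. All partner lists were chosen with earlier results of these data known, so their counts are a description and no independent support. For these and the later lists, the shares of all genes tested were 39.2% higher and 26.8% lower in wild-type mice. In knockout mice they were 36.6% and 27.1%, and 31.8% of all genes were higher in both genotypes. Of the 4 tested urea cycle enzymes, all 4 were higher in fetal liver in both genotypes, among them the ornithine transcarbamylase gene Otc, by 7.21 ± 0.165 in wild-type and 6.96 ± 0.165 in knockout mice, and Cps1, by 2.33 and 1.84. Both averaged under the minimum of 5 in marrow, at 3.42 and 4.16 in wild-type mice, and so reached it through fetal liver alone. For both, a higher level in fetal liver was built into the selection, so they add little to the count of 4. Of the 4 enzymes of the malate-aspartate shuttle, 3 were higher in wild-type and 4 in knockout mice, led by Got2, which differed by 1.35 ± 0.109 and 1.21 ± 0.109. The 10 hepatocyte markers, whose mean was under the minimum of 5 in marrow, were higher with these carriers and enzymes. So were 4 of 7 endothelial and stromal markers in wild-type mice, with 1 lower. In knockout mice 6 of 7 were higher (median difference 1.81 in wild-type and 2.32 in knockout mice). The part of either cell type in the differences was not tested.

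Among the di- and tricarboxylate carriers, the citrate carrier Slc25a1, which exports citrate for the making of cytosolic acetyl-CoA, stood at 8.19 and 8.12 in wild-type and 8.06 and 8.02 in knockout marrow. It rose to 9.71 and 9.82 in wild-type and 10.32 and 9.89 in knockout fetal liver, a difference of 1.61 ± 0.138 (3.05-fold; adjusted p = 1.05e-05, limma) and 2.06 ± 0.138 (4.17-fold; adjusted p = 2.36e-06). Slc25a10, which exchanges malate or succinate for phosphate, stood at 7.47 to 7.61 on the marrow and 8.62 to 8.97 on the fetal liver arrays. Its difference was 1.24 ± 0.119 in wild-type and 1.29 ± 0.119 in knockout mice (adjusted p = 2.13e-05 and 1.81e-05, limma). The oxoglutarate-malate carrier Slc25a11 did not pass in either genotype, at -0.03 (95% interval -0.24 to 0.17) and -0.19 (-0.39 to 0.01). All 5 enzymes of the list that turns citrate into lipid were higher in fetal liver in both genotypes, beside 31.8% of all genes. Fatty acid synthase, Fasn, was higher by 1.504 ± 0.095 and 1.704 ± 0.095.

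Slc25a20, the carnitine-acylcarnitine carrier that brings fatty acids into the matrix for oxidation, was higher in fetal liver by 0.77 ± 0.127 in wild-type and 0.59 ± 0.127 in knockout mice (adjusted p = 0.000666 and 0.00324, limma). Its arrays ran from 8.99 to 9.33 in marrow and from 9.71 to 9.97 in fetal liver, with no overlap. A second, dimmer probe set differed less in the same direction, by 0.34 and 0.19. Of 9 enzymes of carnitine transfer and fatty acid oxidation, 6 were higher (39.2% and 36.6% of all genes) and 2 lower (26.8% and 27.1%) in each genotype. The lower ones were Crat and Cpt1a, the outer-membrane carnitine palmitoyltransferase, which differed by -2.33 ± 0.109 and -2.19 ± 0.109, while the thiolase gene Acaa2 was higher by 2.08 ± 0.127 and 1.90 ± 0.127.

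**Figure D2:**
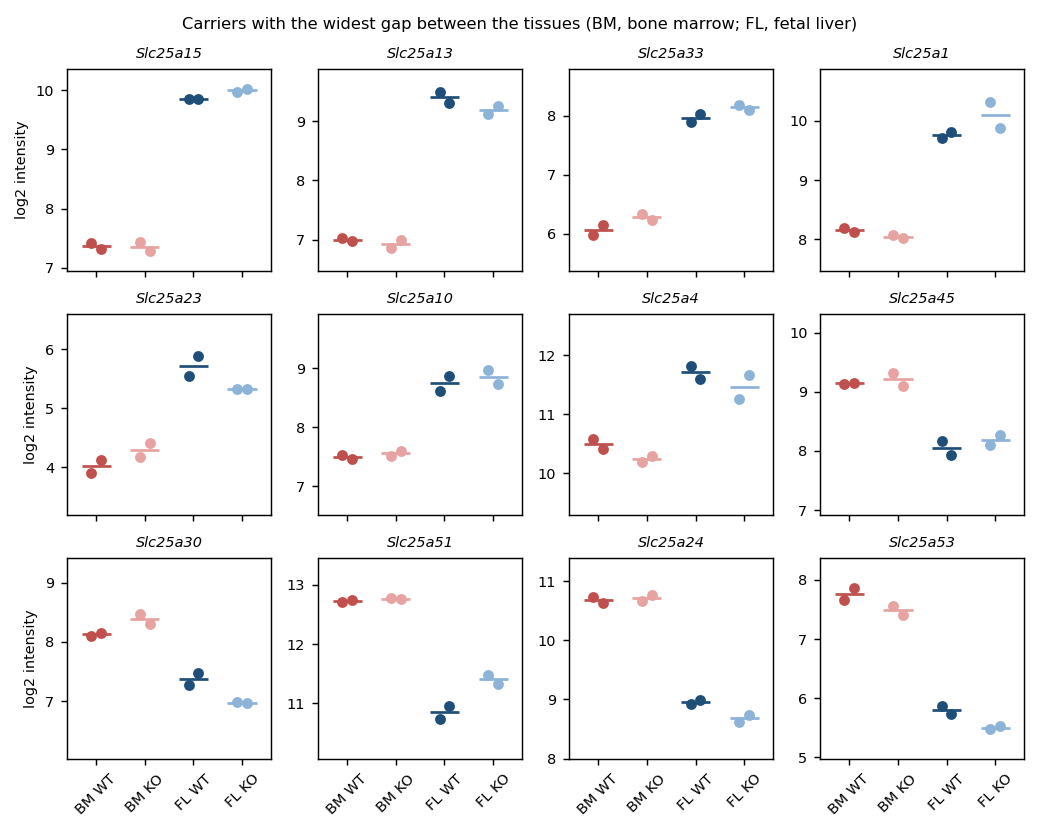
Log2 intensity of the 12 carriers with the widest mean gap between the tissues, with 1 point for each array, a bar for the mean of the 2 arrays of a group, and an equal span on each vertical axis. In each panel the 4 marrow points (BM) and the 4 fetal liver points (FL) do not overlap; the Slc25a15 points lie between 7.28 and 7.43 in marrow and between 9.85 and 10.03 in fetal liver.

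Coenzyme and nucleotide carriers held members at both ends. Slc25a33, a pyrimidine nucleotide carrier, stood at 5.98 and 6.16 in wild-type and 6.34 and 6.24 in knockout marrow, and at 7.90 and 8.02 in wild-type and 8.19 and 8.10 in knockout fetal liver. The gap was 1.89 ± 0.102 (3.71-fold; adjusted p = 5.83e-07, limma) and 1.86 ± 0.102 (3.62-fold; adjusted p = 6.66e-07). Slc25a36, which carries the same class of substrates, did not pass, at -0.12 (95% interval -0.33 to 0.08) and -0.22 (-0.42 to -0.02, adjusted p = 0.0516, limma). Its dimmer probe sets past the minimum disagreed with each other in wild-type mice. One differed by -0.80 in wild-type and -1.21 in knockout mice, the other by 0.04 and -0.32. Slc25a51, the importer of NAD+, ran opposite to Slc25a33: it stood at 12.71 and 12.74 in wild-type and 12.77 and 12.76 in knockout marrow, and at 10.74 and 10.96 in wild-type and 11.49 and 11.32 in knockout fetal liver. It was lower in fetal liver, with a difference of -1.88 ± 0.107 in wild-type (3.67-fold; adjusted p = 8.12e-07, limma) and -1.36 ± 0.107 in knockout mice (2.57-fold; adjusted p = 6.51e-06). Its other 2 probe sets were lower as well, at -1.39 and -2.88 in wild-type mice.

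Slc25a26 imports S-adenosylmethionine, the methyl donor. Its marrow arrays lay between 6.80 and 6.86, the wild-type fetal liver arrays at 7.55 and 7.76 and the knockout ones at 7.20 and 7.18, so that the fetal liver genotypes did not overlap. It was higher in fetal liver by 0.82 ± 0.097 in wild-type (adjusted p = 8.44e-05, limma) and by 0.38 ± 0.097 in knockout mice (adjusted p = 0.0084). Slc25a32, linked to the import of folate and FAD, passed in wild-type mice, at 0.48 ± 0.095 (adjusted p = 0.0018, limma), and in knockout mice stood at -0.13 (95% interval -0.35 to 0.08). A second probe set of Slc25a32 differed by 1.13 and 0.55, both upward. All 4 tested enzymes of mitochondrial one-carbon metabolism, which uses folate, were higher in fetal liver in both genotypes, beside 31.8% of all genes. The serine hydroxymethyltransferase gene Shmt2 was higher by 2.02 ± 0.124 and 2.27 ± 0.124. Slc25a42, a coenzyme A carrier, and Slc25a17, the ATP and coenzyme A carrier of peroxisomes, passed in knockout mice, at 0.38 (adjusted p = 0.0184) and -0.26 (adjusted p = 0.0265, limma), and not in wild-type mice. Both calls ended without either knockout marrow array or without the first knockout fetal liver array (adjusted p = 0.0522 to 0.101 for Slc25a42 and 0.0817 to 0.0975 for Slc25a17, limma), and with the mean over all probe sets (0.15 and -0.0087). Slc25a16, tied to coenzyme A, did not pass, at 0.08 and -0.20.

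Of the carriers that serve ATP supply, the adenine nucleotide exchangers bring ADP in and ATP out. Slc25a4, known from heart and muscle, stood at 10.59 and 10.41 in wild-type and 10.19 and 10.30 in knockout marrow, and at 11.81 and 11.60 in wild-type and 11.25 and 11.67 in knockout fetal liver. All fetal liver arrays were above all marrow arrays, by 1.21 ± 0.149 (2.32-fold; adjusted p = 0.000103, limma) and 1.22 ± 0.149 (2.33-fold; adjusted p = 0.000109). Its other probe sets past the minimum agreed in direction. Slc25a5, the exchanger of dividing cells, ranged from 12.96 to 13.06 in marrow and from 12.73 to 12.85 in fetal liver, a small step down that passed in knockout mice (-0.27, adjusted p = 0.026, limma) and not in wild-type mice (-0.17, adjusted p = 0.114). The knockout call ended without the second knockout marrow array (-0.22, adjusted p = 0.137, limma) or the second knockout fetal liver array (-0.26, adjusted p = 0.061), and the mean over its 8 probe sets was -0.051. The phosphate carrier Slc25a3 lay between 12.16 and 12.46 on all arrays and did not pass, at -0.02 (95% interval -0.22 to 0.19) and 0.15 (-0.05 to 0.36). A second, much dimmer probe set past the minimum was lower in fetal liver, by -0.69 in wild-type and -0.55 in knockout mice.

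Of the 3 tested calcium-regulated ATP-Mg/phosphate carriers, 1 was lower in fetal liver, 1 higher and 1 did not pass, in both genotypes. Slc25a24 stood at 10.73 and 10.63 in wild-type and 10.66 and 10.77 in knockout marrow, and at 8.92 and 8.996 in wild-type and 8.61 and 8.74 in knockout fetal liver. It was lower there, with differences of -1.72 ± 0.096 (3.30-fold; adjusted p = 7.24e-07, limma) and -2.03 ± 0.096 (4.09-fold; adjusted p = 2.66e-07), and its second probe set stood at -2.56 and -2.27. Slc25a23 was dim, at 3.91 and 4.13 in wild-type and 4.17 and 4.41 in knockout marrow and at 5.54 and 5.89 in wild-type and 5.32 and 5.32 in knockout fetal liver. It was higher by 1.69 ± 0.141 and 1.03 ± 0.141 (adjusted p = 8.74e-06 and 0.000217, limma), but it reached the minimum through the fetal liver arrays alone, so a difference was built into its selection. The same was so for Slc25a48, and through marrow for Slc25a27 and Slc25a35. Slc25a25 did not pass, at -0.05 (95% interval -0.26 to 0.17) and 0.19 (-0.03 to 0.40).

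Among the uncoupling-protein-like members, Slc25a30, a kidney-known carrier, stood at 8.10 and 8.15 in wild-type and 8.47 and 8.30 in knockout marrow, and at 7.28 and 7.47 in wild-type and 6.98 and 6.96 in knockout fetal liver. The fetal liver difference was -0.75 ± 0.103 (adjusted p = 0.000204, limma) and -1.42 ± 0.103 (2.67-fold; adjusted p = 4.09e-06). Averaging all 5 of its probe sets, 2 of which did not reach the minimum and differed by 0.19 and 0.44 in wild-type mice, gave -0.25 in wild-type mice, which missed the threshold (adjusted p = 0.0539, limma). Slc25a27 was dim and lower in fetal liver, at -0.77 and -0.33 (adjusted p = 0.000426 and 0.0362, limma), and the knockout call ended without either knockout marrow array or the second knockout fetal liver array (adjusted p = 0.0738 to 0.158). Slc25a14 did not pass, at 0.21 (adjusted p = 0.0542, limma) and 0.01.

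**Figure D3:**
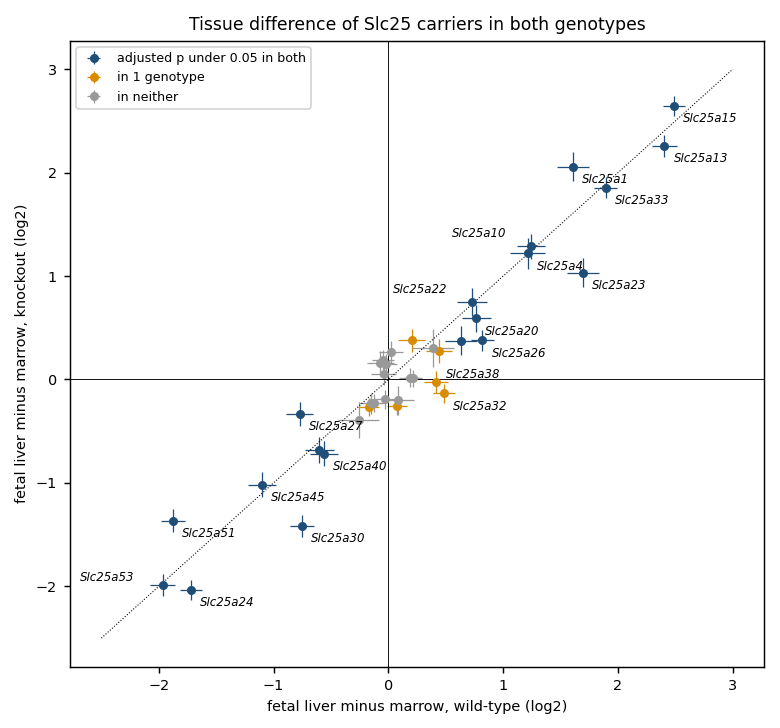
Tissue difference (fetal liver minus bone marrow, log2) of the 38 tested carriers in wild-type (horizontal) against knockout mice (vertical); bars are 1 SE of the fit, colours give whether the adjusted p was under 0.05 in both genotypes, 1 or neither, and the dotted line marks equal differences. Slc25a15 (2.49 and 2.64) and Slc25a13 (2.40 and 2.26) lie at the upper right, and Slc25a53, Slc25a24 and Slc25a51 at the lower left.

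For the heme and iron side, tissue differences of the carriers known from red cell mitochondria were small by their brightest probe sets. Of the erythroid markers, 1 of 7 was higher and 1 lower in wild-type and 2 higher in knockout mice. Slc25a38, the glycine carrier that serves the first step of heme synthesis, stood at 9.97 and 10.05 in wild-type and 10.36 and 10.13 in knockout marrow, and at 10.40 and 10.44 in wild-type and 10.17 and 10.29 in knockout fetal liver. It passed in wild-type mice, at 0.41 ± 0.105 (adjusted p = 0.00751, limma), but not without the first wild-type marrow array (0.37, adjusted p = 0.053), and in knockout mice stood at -0.02 (95% interval -0.26 to 0.22). Slc25a39, a glutathione carrier known from red cell development, ranged from 12.90 to 13.40 and did not pass, at -0.07 and 0.15. Its dimmer probe sets disagreed. In wild-type and knockout mice they differed by -0.21 and -0.03, 0.04 and 0.25, 0.50 and 0.33, and 0.50 and 0.52. The paralog Slc25a40 passed, with arrays from 7.06 to 7.50 in marrow and 6.51 to 6.75 in fetal liver. Its difference was -0.56 ± 0.123 and -0.72 ± 0.123 (adjusted p = 0.0034 and 0.000895, limma). The broadly expressed mitoferrin Slc25a28 did not pass, at -0.15 and -0.23. The erythroid mitoferrin Slc25a37, not a member, differed by 0.02 in wild-type and 0.28 in knockout mice. Of 8 heme synthesis enzymes 2 were higher in fetal liver in each genotype, and 2 in wild-type and 3 in knockout mice lower; Cpox was higher by 0.90 ± 0.111 and 1.35 ± 0.111 and Alas1 differed by -0.87 and -1.05.

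Among the members whose substrate was not assigned here, Slc25a53 and Slc25a45 were lower in fetal liver. Slc25a53, on the X chromosome, stood at 7.66 and 7.86 in wild-type and 7.56 and 7.41 in knockout marrow, and at 5.86 and 5.73 in wild-type and 5.48 and 5.52 in knockout fetal liver. This is a difference of -1.97 ± 0.107 (3.91-fold; adjusted p = 6.36e-07, limma) and -1.99 ± 0.107 (3.96-fold; adjusted p = 5.98e-07). Its second probe set differed by 0.47 and -0.34, so the probe sets disagreed in wild-type mice. Slc25a45 ranged from 9.11 to 9.31 in marrow and 7.93 to 8.27 in fetal liver, a difference of -1.10 ± 0.120 and -1.02 ± 0.120 (adjusted p = 4.85e-05 and 8.48e-05, limma). Slc25a47, known as a liver carrier, was higher in fetal liver by 0.63 ± 0.142 and 0.37 ± 0.142 (adjusted p = 0.00384 and 0.0446, limma), from 6.30 to 6.48 on the marrow to 6.70 to 7.26 on the fetal liver arrays. The knockout call of Slc25a47 ended when any of the 4 marrow arrays or either knockout fetal liver array was left out (0.32 to 0.43, adjusted p = 0.0584 to 0.182, limma). Slc25a46, of the outer membrane, the branched-chain amino acid carrier Slc25a44, and Slc25a34, Slc25a35 and Slc25a48 did not pass in either genotype. The dimmer probe sets of Slc25a44 disagreed, with -0.33 and -0.36 for one and 0.36 and 0.26 for the other in wild-type and knockout mice. That of Slc25a46 differed by -0.22 and -0.28, against 0.19 and 0.02 for its brightest.

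**Figure D4:**
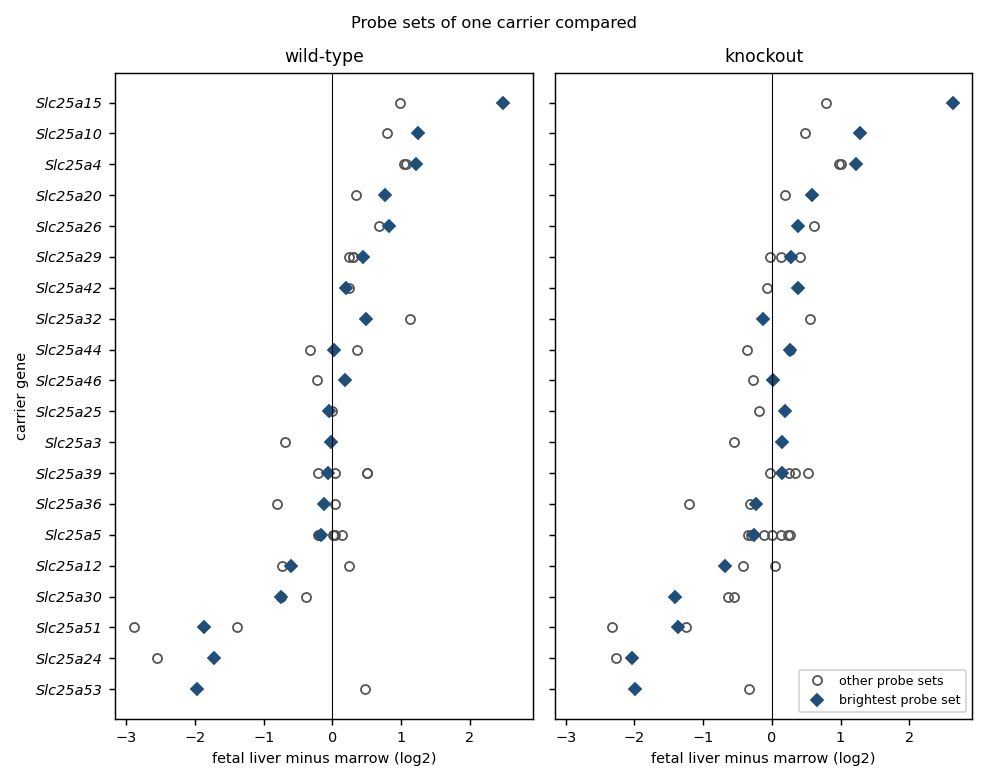
Tissue difference (fetal liver minus bone marrow, log2) of each carrier with more than 1 probe set past the minimum, in wild-type (left) and knockout mice (right); the filled diamond is the brightest probe set, used in the tests, and open circles are the others. Those of Slc25a51 and Slc25a24 all lie below 0, while the probe sets of Slc25a53 fall on both sides in wild-type mice, at -1.97 and 0.47.

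Over all called members with other probe sets past the minimum (12 in each genotype), 16 of 18 other probe sets had the sign of the brightest one in wild-type and 17 of 22 in knockout mice. For 10 called members in each genotype no other probe set was past the minimum.

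Promoter sequence was set beside the tissue differences. RefSeq windows (GRCm38.p6) reaching 250 bases upstream of the start were found for 34 of the 43 members. The windows of the 4 carriers with the largest increases by the mean of both genotypes are shown first, because each holds the E-box CACGTG, and those of 2 lower carriers whose other probe sets past the minimum had the same sign follow. Capitals mark CACGTG and the CCAAT box, on either strand; sequences run 5′ to 3′ on the gene's strand and end at the base before the start. The windows are chr8:22398278-22398527 (minus strand) for Slc25a15, chr6:6217174-6217423 (minus) for Slc25a13, chr4:149774268-149774517 (minus) for Slc25a33, chr16:17928220-17928469 (minus) for Slc25a1, chr3:109122899-109123148 (plus) for Slc25a24 and chr14:75787038-75787287 (minus) for Slc25a30.
Slc25a15: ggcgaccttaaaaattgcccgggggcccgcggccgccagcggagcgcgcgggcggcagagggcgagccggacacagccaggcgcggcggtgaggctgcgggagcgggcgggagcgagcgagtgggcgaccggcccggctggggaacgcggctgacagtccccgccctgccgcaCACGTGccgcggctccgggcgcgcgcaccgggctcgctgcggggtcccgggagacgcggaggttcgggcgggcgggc
Slc25a13: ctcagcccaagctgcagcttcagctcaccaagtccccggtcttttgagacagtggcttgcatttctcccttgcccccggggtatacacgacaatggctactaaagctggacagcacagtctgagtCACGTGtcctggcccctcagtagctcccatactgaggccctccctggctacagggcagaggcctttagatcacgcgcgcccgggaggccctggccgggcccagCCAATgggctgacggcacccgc
Slc25a33: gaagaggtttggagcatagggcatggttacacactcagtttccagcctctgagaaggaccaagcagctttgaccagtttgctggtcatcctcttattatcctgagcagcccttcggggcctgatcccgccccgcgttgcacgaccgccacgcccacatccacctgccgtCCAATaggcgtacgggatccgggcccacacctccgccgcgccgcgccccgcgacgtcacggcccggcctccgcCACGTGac
Slc25a1: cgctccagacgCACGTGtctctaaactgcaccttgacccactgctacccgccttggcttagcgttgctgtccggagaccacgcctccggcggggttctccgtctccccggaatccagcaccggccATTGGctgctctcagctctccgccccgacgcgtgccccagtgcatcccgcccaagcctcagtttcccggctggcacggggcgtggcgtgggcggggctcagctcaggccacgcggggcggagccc
Slc25a24: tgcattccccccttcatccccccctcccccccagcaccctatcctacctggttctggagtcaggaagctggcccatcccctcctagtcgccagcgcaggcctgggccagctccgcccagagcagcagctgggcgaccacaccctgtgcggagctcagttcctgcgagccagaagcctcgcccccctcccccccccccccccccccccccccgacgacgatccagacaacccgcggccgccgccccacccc
Slc25a30: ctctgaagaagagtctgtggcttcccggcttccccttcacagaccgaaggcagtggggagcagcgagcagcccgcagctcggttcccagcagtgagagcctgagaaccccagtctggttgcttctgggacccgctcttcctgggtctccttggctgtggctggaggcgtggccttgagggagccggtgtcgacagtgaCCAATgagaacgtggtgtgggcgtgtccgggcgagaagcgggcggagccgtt

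The first base of CACGTG lies at -77 in Slc25a15, -125 in Slc25a13, -8 in Slc25a33 and -239 in Slc25a1, counted from the start. For Slc25a15 this is 1 of 2 windows in the table. Neither of the 2 windows of Slc25a23, which in wild-type mice alone was higher by 1.69 against 1.61 for Slc25a1, holds it. Of the members higher in both genotypes, 10 had a window and 4 of these held CACGTG; of the lower ones 6 had a window and 0 held it. CACGTG was in 6.02% of 32851 windows, in those of 9.65% of 10581 tested genes, and in those of 10.2% of all genes higher and 9.44% of all genes lower in fetal liver in both genotypes. It was also in the windows of Slc25a14 and Slc25a36, which did not pass, and of the untested Slc25a31. CCAAT was found in 7 of the 10 higher and 2 of the 6 lower members, beside 39.9% of the tested genes.

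In all 9 motifs were searched, on both strands, and the E-box was singled out after the results were seen. For the other 7, the count among the 10 higher members was 0 for NRF1 (3.74% of all windows), 1 for ETS factors with the letters CCGGAAGT (2.88%) and 0 for GATA factors, searched as AGATAA (9.99%). It was 0 for ERR (AAGGTCA; 4.08%), for HNF4 (CAAAGTCCA; 0.384%), for CEBP (TTGCGCAA; 0.164%) and for SREBP (TCACNCCAC; 1.05%). Among the 6 lower members AGATAA was in the window of 1, Slc25a53, and each of the remaining motifs of this group in 0. The member counts are per gene, over any of its windows, while the percentages beside these motifs are per window over all 32851 windows. The shares are not alike: CACGTG was in 6.02% of windows and in those of 9.65% of tested genes. A match is a description of these letters only.

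The machinery that carriers depend on was measured too. Carriers are guided from the cytosol into the inner membrane by outer-membrane receptors, small Tim chaperones and the TIM22 complex. Of the 13 import genes on the list, 11 were higher in fetal liver in wild-type and 10 in knockout mice (limma), beside 39.2% and 36.6% of all genes. As lower 0 passed, beside 26.8% and 27.1%, with 0 and 1 lower at an unadjusted p under 0.05 (limma). The median difference of the list was 0.83 and 0.50, beside 0.14 and 0.11 for all genes. Tomm40, the channel of the outer membrane, was higher by 1.63 ± 0.090 and 1.61 ± 0.090 (adjusted p = 6.59e-07 and 7.15e-07, limma), and the chaperone Timm8a1 by 1.57 ± 0.116 and 0.96 ± 0.116. Of 11 genes taken as signs of mitochondrial content, 7 and 8 were higher (39.2% and 36.6% of all genes) and 0 lower (26.8% and 27.1%). At an unadjusted p under 0.05 (limma) 0 were lower as well. The list's median difference was 0.63 and 0.57, and it was led by the matrix chaperonin genes Hspe1 (1.37 and 1.31) and Hspd1 (1.15 and 1.25). The other channels and transporters were mixed, with 4 higher and 5 lower of 17 in wild-type and 5 and 4 in knockout mice; Sfxn2 was higher by 1.56 ± 0.083 and 1.64 ± 0.083, the outer-membrane channel Vdac1 by 1.30 and 1.07, and Sfxn5 differed by -1.18 and -1.04.

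The remaining comparisons asked what loss of Col18a1 did to the carriers in each tissue. In bone marrow 0 of 38 members passed the adjusted threshold (limma), beside 0.411% of all genes tested, and 3 had an unadjusted p under 0.05, beside 6.74% of all genes. Differences ran from -0.28 to 0.27, and the 95% intervals of all members stayed within -0.59 and 0.61. The 3 with the largest test statistics, none of which passed, were Slc25a53 at -0.28 ± 0.107 (adjusted p = 0.681, limma), Slc25a30 at 0.26 ± 0.103 (adjusted p = 0.694) and Slc25a38 at 0.24 ± 0.105 (adjusted p = 0.738). Arrays of the genotypes did not overlap for 20 of 38 members, beside 43.1% of all genes. In the same marrow arrays 5 of 6 megakaryocyte markers and 2 of 7 endothelial and stromal markers were lower in the knockout, with summed megakaryocyte levels of 13.69 to 13.94 in wild-type and 12.69 to 12.76 in knockout pools; their part in the carrier values was not tested.

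In fetal liver 0 of 38 members passed the adjusted threshold (limma), beside 0.32% of all genes, while 11 had an unadjusted p under 0.05, beside 22.0% of all genes. Of these, 5 were higher in the knockout (7.89% of all genes) and 6 lower (14.1%). The genotypes' arrays did not overlap for 25 of 38 members, beside 50.1% of all genes. The 3 with the largest test statistics were Slc25a51 at 0.55 ± 0.107 (adjusted p = 0.0834, limma), Slc25a26 at -0.47 ± 0.097 (adjusted p = 0.0902) and Slc25a32 at -0.44 ± 0.095 (adjusted p = 0.0923). For Slc25a51 the wild-type arrays at 10.74 and 10.96 lay below the knockout arrays at 11.49 and 11.32. For Slc25a32 the wild-type arrays, both at 7.65, lay above the knockout arrays at 7.14 and 7.28. Without the second knockout fetal liver array, when the lone remaining one is assumed to vary like the other groups, 3 members passed (limma): Slc25a51 at 0.64 (adjusted p = 0.0296), Slc25a1 at 0.56 (adjusted p = 0.0292) and Slc25a32 at -0.51 (adjusted p = 0.0356). With a robust spread that follows the level, 2 passed, Slc25a51 (adjusted p = 0.0174, limma) and Slc25a26 (adjusted p = 0.0495). These values carry the difference in Xist and Eif2s3y between the pools, from which the genotype cannot be told apart here.

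**Figure D5:**
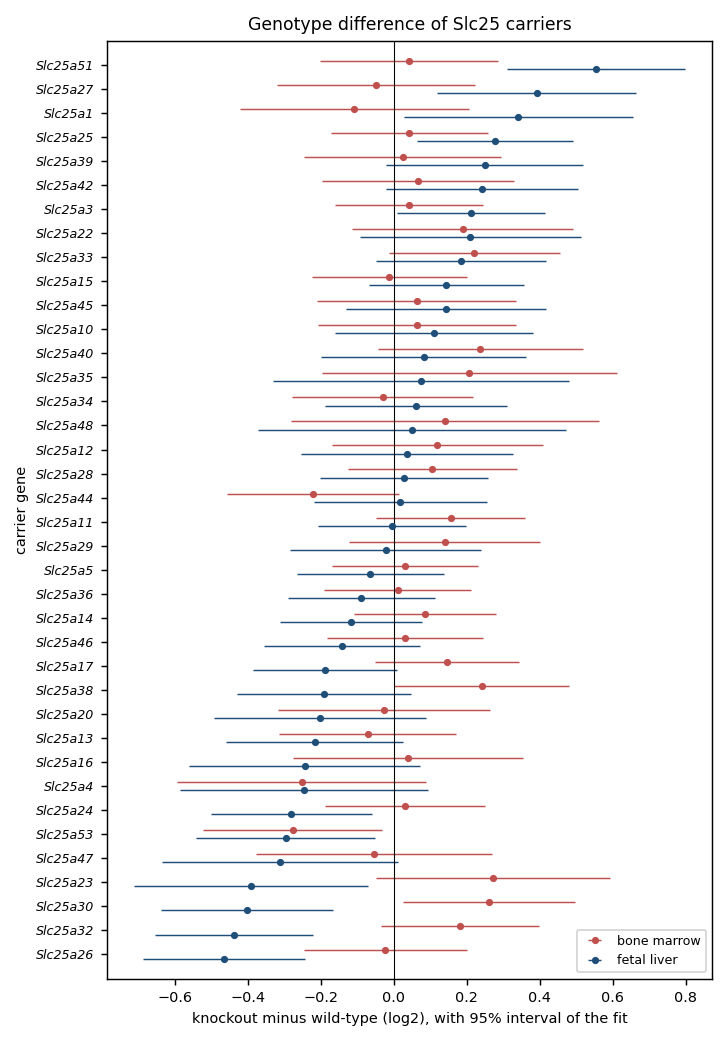
Knockout minus wild-type difference (log2, points) with the 95% interval of the fit (lines) for the 38 tested carriers, in bone marrow (red) and fetal liver (blue), ordered by the fetal liver value. The marrow points lie between -0.28 and 0.27 and the fetal liver points between -0.47 for Slc25a26 and 0.55 for Slc25a51, and no member passed the adjusted threshold in either tissue.

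The interaction term asked if knockout minus wild-type was unequal in marrow and fetal liver. It passed for 0 of 38 members (limma), beside 0.0914% of all genes, and 9 had an unadjusted p under 0.05, beside 15.7% of all genes. The 3 with the largest test statistics were Slc25a32 at -0.62 ± 0.134 (adjusted p = 0.146, limma), Slc25a30 at -0.66 ± 0.146 (adjusted p = 0.15) and Slc25a51 at 0.51 ± 0.151 (adjusted p = 0.21). The members called in the tissue comparison of 1 genotype alone, such as Slc25a32 and Slc25a38, were thus not shown to differ between genotypes. Of 74 tested genes on the partner lists, 0 passed by genotype in marrow, in fetal liver or in the interaction (limma), beside 0.411%, 0.32% and 0.0914% of all genes. At an unadjusted p under 0.05 (limma) there were 1, 12 and 6, beside 6.74%, 22.0% and 15.7% of all genes. Of the 12 in fetal liver 8 were lower in the knockout (14.1% of all genes were), among them 5 of the 13 import genes.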

How the data were processed

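Expression was measured on 8 Affymetrix mouse arrays. The deposited table gives 1 linear intensity per probe set and array, made by the authors with RMA (background correction, quantile normalization and probe summary), per the submitters' processing notes; no version is stated there. Quantile normalization makes the arrays' distributions alike and RMA compresses dim differences. Of 45101 probe sets, 34958 name 1 gene, 932 several and 9211 are unnamed here. The log2 of the deposited intensity was taken here. Median intensities lay between 40.8 and 42.6, and arrays of 1 group correlated at 0.995 to 0.998 across genes; the number of arrays limits the precision.

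Groups came from the titles. All 8 arrays entered 1 fit in limma 3.58.1 (R 4.3.3; lmFit, eBayes), with 1 mean per group, 4 residual and 4.48 prior degrees of freedom, and two-sided p-values adjusted over 13136 genes that reached a log2 of 5 on 2 arrays or more. Full values are given for called members, up to the 12 with the largest moderated t per contrast, or for the 3 largest where fewer than 3 passed, and up to 3 called genes are named per partner list. Members and lists were chosen with earlier results of these data known. Alternatives changed the filter, probe sets, centring, variance model, array weights, replicate block, arrays fitted and each array left out in turn.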

Additional observations from a re-analysis of the deposited data

How the results depend on the processing

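With 2 arrays a group, small differences rest on single pools, and dim probe sets limit what can be measured. The total counts of called members in both tissue comparisons stayed within 1.5 times the reported ones under every alternative run (20 to 28 in wild-type, 17 to 25 in knockout mice; 20 to 24 and 17 to 22 when single arrays were left out, where the lone array of a group is assumed to vary like the other groups). The split did not: centring each array on the median of its gene values, added after seeing the data, moved the lower calls from 8 to 16 in wild-type and from 10 to 16 in knockout mice, and the higher ones from 14 to 12 and from 12 to 9. Of the 11 members higher and 8 lower in both genotypes, 9 and 6 kept both calls under every alternative in which they were tested; Slc25a23 was not tested at a minimum of 6 and Slc25a53 not without chromosomes X and Y. Among called members, the wild-type calls of Slc25a29, Slc25a30 and Slc25a38 and the knockout calls of Slc25a5, Slc25a17, Slc25a26, Slc25a27, Slc25a42 and Slc25a47 ended under at least 1 alternative. In fetal liver the genotype count of 0 became 2 with a trended, robust spread and ranged from 0 to 3 when single arrays were left out; the cause was not tested. The marrow genotype and interaction counts were 0 throughout. Of values that did not pass, or passed in 1 genotype only, some changed sign. With that centring the wild-type tissue difference became -0.14 for Slc25a17 and -0.015 for Slc25a42. With the mean over all probe sets, the knockout tissue difference of Slc25a32 became 0.13, and the fetal liver genotype difference 0.057 for Slc25a24 and -0.035 for Slc25a25. The knockout tissue difference of Slc25a38 became 0.093 without the first knockout marrow array and 0.037 without the first knockout fetal liver array. Leaving out genes of chromosomes X and Y, also added after seeing the data, gave 21 and 20 calls in the tissue comparisons.

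The replicate number as a block gave 22 calls in each tissue comparison and 0 in the others; in knockout mice Slc25a29 passed (adjusted p = 0.0381, limma) and Slc25a27 no longer did (adjusted p = 0.0533). Deviations of same-numbered arrays from their group means correlated between -0.12 and -0.00078 across genes. The labels do not say whether the numbers mark litters or batches, so the arrays were not treated as pairs.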
